A study of Mus musculus with 23 samples.

Results

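The collagen genes of the mouse were followed across control liver, pre-metastatic liver, and primary tumor. They were taken by name: every protein-coding row of the expression table whose symbol reads Col, a type number, the letter a, and a chain number. This gave 44 genes out of 21886 protein-coding genes and 48897 genes in all. By structure, 11 code for fibrillar chains, 9 for FACIT chains that sit on the surface of fibrils, 6 for type IV chains of basement membranes, 6 for type VI beaded filaments, 3 for short-chain networks, 4 for transmembrane collagens, 2 for multiplexins, 1 for anchoring fibrils, and 2 for other types. The libraries came from male BALB/c mice that were aged 4 to 6 weeks when divided into groups. Control livers (n = 5, mice C1, C4, C5, C6, and C7) were from sham-operated mice whose cecal serosa received serum-free medium. Pre-metastatic livers (n = 9) and primary tumors (n = 9) were from mice M1, M2, M4, M5, M6, M7, M8, M10, and M12, whose cecal serosa received CT26 cells, a mouse colon carcinoma line. All mice were killed 3 weeks after injection, and each mouse with CT26 cells gave 1 tumor and 1 liver under its number. The tumor is a graft of a single cell line together with the host cells around it, and every sample is whole tissue, so fewer cells of a type and less RNA per cell cannot be told apart.

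Collagens are secreted proteins whose chains coil around each other into a rope-like helix. Types I, III, and V assemble into the fibrils that give tissue its tensile strength, type IV forms the sheet of basement membranes, and types XV and XVIII sit beside basement membranes and carry an endostatin domain. In the liver, stellate cells and portal fibroblasts are the textbook makers of fibrillar collagen, and hepatocytes are a known source of type XVIII. In a carcinoma most fibrillar collagen is thought of as stromal, although tumor cells can make collagens too.

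The libraries held 44587556 to 79773163 counts, of which 0.1 to 0.697% fell on collagen genes. Levels are given as RPKM (counts per kilobase of gene, scaled to the library total), and fold changes are from edgeR with TMM scaling, with adjusted p from its quasi-likelihood test over all genes tested. The scales differ in the comparisons with the tumor: the median log2 fold change of all genes tested against control liver was 0.18 under TMM and 1.26 under library totals (0.13 and 1.30 against pre-metastatic liver), so an RPKM ratio there is larger than the fold change of the test. Hepatocyte markers matched the labels, with a summed level of 47740 to 59570 RPKM in control livers, 38120 to 79080 in pre-metastatic livers, and 7.83 to 313 in tumors. Of the colon epithelial markers in the tumor, Krt20 was at 27.8 to 113 RPKM, whereas Epcam and Cdx1 were at medians of 0.0622 and 0 RPKM. Skeletal muscle genes (Ckm, Acta1, and Myh4) summed to 64.3 RPKM in the control liver of mouse C1, 17.3 in the liver of mouse M4, and 343.6 and 72.6 in the tumors of mice M4 and M7, against at most 1.2 RPKM in the others. The labels give no time of day. By an index of the clock genes in their livers, 9 mice were placed in an earlier and 5 in a later phase of the day, with C7, M1, M2, M10, and M12 in the later one. The index ran from -2.35 to -0.102 in the earlier mice and from 0.981 to 2.922 in the later ones.

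Control liver was dominated by a single collagen gene. Col18a1, which codes for the type XVIII chain, was at 154.9, 127, 133.3, 122.3, and 112.6 RPKM in mice C1, C4, C5, C6, and C7, a mean of 130 ± 15.8 (SD, n = 5). It made up 79 to 88.7% of the summed level of all 44 genes. The next gene was Col14a1, a fibril-surface collagen, at 4.40 ± 1.08 RPKM (SD, n = 5). Col4a1 (3.81 ± 0.979) and Col4a2 (2.85 ± 0.798), the common chains of basement membranes, and Col3a1 (2.15 ± 0.548), the chain of type III fibrils, came after it. The ranges of Col14a1, Col4a1, and Col4a2 overlapped, whereas no library of Col18a1 came near them. Col1a1 and Col1a2, the chains of type I collagen, were low in control liver, at 0.862 ± 0.280 and 2.12 ± 0.456 RPKM. Only 8 of the 44 genes had a mean of at least 1 RPKM in control liver, against 14 in pre-metastatic liver and 19 in tumor.

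The make-up of the collagens differed between the tissues. The summed level of the 44 genes ran from 139.3 to 174.7 RPKM in control livers, from 173.5 to 291.4 in pre-metastatic livers (median 233.5), and from 761.1 to 1192 in tumors (median 1047). The ratio of the group means was 1.47 for pre-metastatic against control liver and 6.38 for tumor against control liver. Without Col18a1 these ratios were 2.61 and 36.9. Col1a1, Col1a2, and Col3a1 together made up 2.24 to 4.25% of the sum in control livers, 6.07 to 20.2% in pre-metastatic livers, and 53.1 to 69.5% in tumors, and these ranges did not overlap. The share of type IV chains was 2.77 to 6.14%, 4.26 to 7.06%, and 11.9 to 22.8% in the same order.

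**Figure D1:**
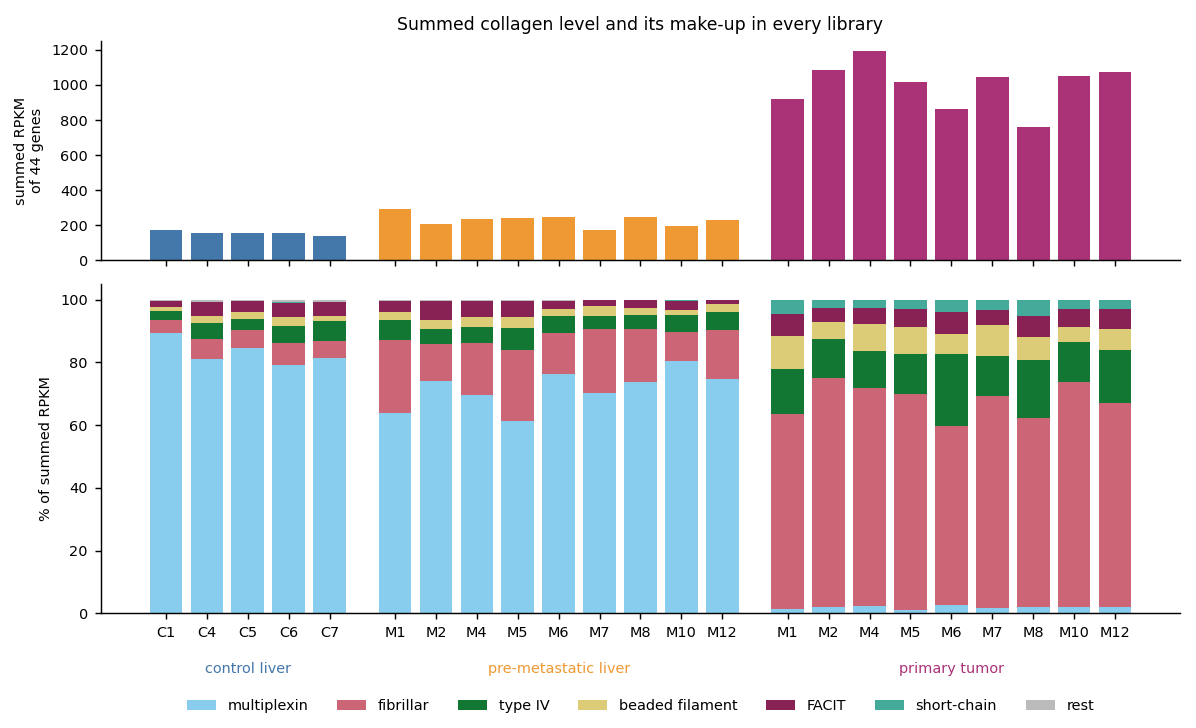
Summed RPKM of the 44 collagen genes in each library (upper bars, from 0) and the share of each structural class in that sum (lower stacked bars, in percent), with mice named under the bars and colors marking the tissue in the upper bars. Multiplexins (Col15a1 and Col18a1) take 79.1 to 89.4% in control livers, 61.4 to 80.3% in pre-metastatic livers, and 1.07 to 2.69% in tumors, where fibrillar chains take 57 to 72.8%.

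The comparison of the livers asks which collagen genes differ in an organ before metastases are seen. Col3a1, Col1a1, Col1a2, and Col5a2, genes of the interstitial fibril, were each higher in all 9 pre-metastatic livers than in any of the 5 control livers. The same held for Col6a6, Col6a5, and Col15a1, which code for chains of other collagen types. Of the 44 genes, 31 passed the filter on low counts, 18 of them rose, and 1 fell. Among all 16989 genes tested, 17.7% rose and 13.3% fell. For 7 of the 31, the RPKM of the groups did not overlap and was higher in pre-metastatic liver, compared with 4.85% of all genes tested. The median log2 fold change of the 31 was 0.92, and that of all genes tested was 0.01. Among the early-phase mice alone (4 control and 5 pre-metastatic livers) 18 rose and 0 fell by edgeR. Of all 16160 genes tested in those mice, 2370 rose and 1769 fell. The later phase held 1 control liver, too few for a value. By class, 6 of 9 fibrillar, 5 of 5 type VI, 3 of 5 type IV, 2 of 4 FACIT, 1 of 4 transmembrane, and 1 of 2 multiplexin genes tested rose. Neither of the 2 short-chain genes tested was called by edgeR, where 1 had an unadjusted p under 0.05, and DESeq2 called 1. Col25a1 passed the filter through the pre-metastatic livers alone, since its control livers held at most 10 counts.

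Col3a1 lies on chromosome 1 (45311538 to 45349706, plus strand, positions of the table). It was at 1.47, 2.53, 2.19, 2.81, and 1.75 RPKM in the control livers and at 6.36 to 32.8 RPKM (median 14.8) in the pre-metastatic livers. The highest liver was that of mouse M1 and the lowest that of mouse M10, and even the lowest exceeded every control liver. Its log2 fold change was 3.01 ± 0.35 (SE), a rise of 8.05-fold (edgeR adjusted p = 5.16e-05). Col1a1, on chromosome 11 (94936224 to 94953042, plus strand), was at 0.737, 1.06, 0.933, 1.14, and 0.442 RPKM in the control livers and at 2.02 to 10.1 RPKM (median 5.03) in the pre-metastatic livers. It rose by 2.71 ± 0.39 on the log2 scale, or 6.53-fold (edgeR adjusted p = 0.000173). Col1a2, its partner on chromosome 6 (4505618 to 4541543, plus strand), was at 1.70, 2.36, 2.31, 2.64, and 1.58 RPKM in the control livers and at 3.59 to 15.8 RPKM (median 9.26) in the pre-metastatic livers, a rise of 4.64-fold (log2 2.21 ± 0.33, edgeR adjusted p = 0.000216). In all of these genes the livers of mice M1 and M10 marked the top and the bottom of the group. Col5a2, a chain of type V collagen that is built into type I fibrils, lies beside Col3a1 on chromosome 1 (45374331 to 45503282, minus strand). Its control livers were at 0.310, 0.517, 0.302, 0.406, and 0.311 RPKM and its pre-metastatic livers at 0.567 to 2.25 RPKM (median 1.47), a rise of 4.33-fold (log2 2.12 ± 0.28, edgeR adjusted p = 0.000116). Col5a1, which pairs with it in type V collagen, did not pass the test (log2 0.60 ± 0.29, edgeR adjusted p = 0.137), and 5 of 9 pre-metastatic livers lay above the control range of 0.501 to 0.914 RPKM. Without the livers of mice M7 and M12 it passed (log2 0.78, edgeR adjusted p = 0.0335).

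The stretches before the start of Col1a2 and Col3a1 are shown because these genes moved together in the liver and lead the tumor. They are from the RefSeq promoter table (GRCm38.p6), which holds windows for 35 of the 44 genes and none for Col1a1. Both are read 5′ to 3′ on the plus strand and leave out bases that an exon of the GENCODE annotation covers. Capitals mark the letters GGGCGG, the motif that Sp1-type factors are known to bind, in the stretch of Col1a2 at chr6:4505370-4505492. In the stretch of Col3a1 at chr1:45311288-45311537 they mark the letters TATAAA, which are the letters of the TATA box.
Col1a2: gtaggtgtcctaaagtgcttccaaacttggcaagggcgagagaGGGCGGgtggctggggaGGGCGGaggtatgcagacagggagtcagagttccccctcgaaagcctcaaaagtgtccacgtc
Col3a1: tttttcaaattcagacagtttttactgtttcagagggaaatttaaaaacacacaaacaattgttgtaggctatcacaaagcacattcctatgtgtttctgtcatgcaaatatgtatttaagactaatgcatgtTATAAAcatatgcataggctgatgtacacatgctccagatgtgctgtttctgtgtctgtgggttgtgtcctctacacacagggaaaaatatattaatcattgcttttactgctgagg
Each motif was searched in the 250 bases before the start on both strands. Col1a2 held GGGCGG at 205 to 200 and at 188 to 183 bases before its RefSeq start. Col3a1 held TATAAA at 117 to 112 bases before its start. Over the collagen genes with a window, GGGCGG was found in 21 of 35, compared with 32.9% of the 27025 genes that have a window. The letters TATAAA were found in 5 of 35 collagen windows, compared with 13% of those genes. A further motif, the letters CCAAT, was found in 12 of 35, compared with 34.5%. A match is a description of the letters and was not tested for function.

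**Figure D2:**
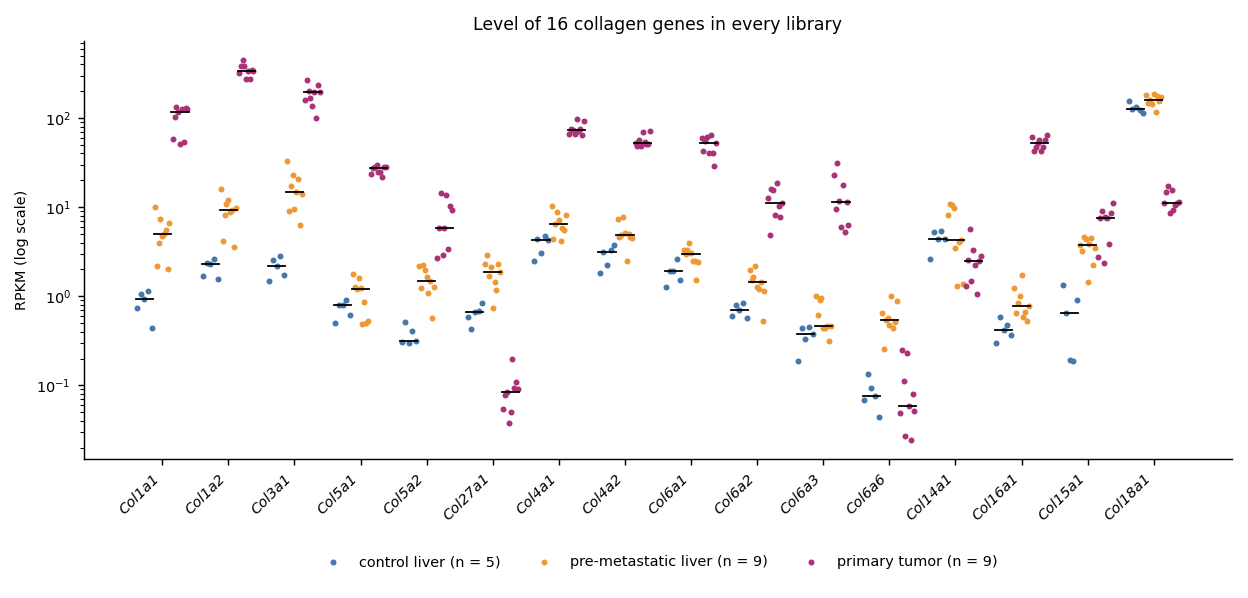
RPKM (log axis) of 16 collagen genes in each library, with points for libraries, colors for the 3 tissues, and black lines at group medians. Col1a1, Col1a2, Col3a1, and Col5a2 climb from control liver to pre-metastatic liver to tumor with no overlap, Col18a1 is at 8.51 to 17.1 RPKM in tumors, and Col27a1 is highest in pre-metastatic liver and lowest in tumor.

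The rarer type VI chains rose from low levels. Col6a5 and Col6a6 lie side by side on chromosome 9 (105856070 to 105960643 and 105689417 to 105828245, minus strand) and code for chains that can stand in for Col6a3 in type VI filaments. Col6a6 was at 0.0684, 0.134, 0.0925, 0.0758, and 0.0446 RPKM in the control livers and at 0.258 to 1.01 RPKM (median 0.548) in the pre-metastatic livers. The groups did not overlap, and the rise was 7.68-fold (log2 2.94 ± 0.36, edgeR adjusted p = 7.07e-05). Col6a5 went from 0.117, 0.177, 0.158, 0.0969, and 0.0411 RPKM to 0.227 to 1.07 RPKM (median 0.593), again without overlap, a rise of 5.34-fold (log2 2.42 ± 0.37, edgeR adjusted p = 0.000295). Their neighbor Col6a4, at most 15 counts in any library, was not tested. The common type VI chains rose less. Col6a2 was at 0.601, 0.789, 0.695, 0.847, and 0.576 RPKM in the control livers and at 0.524 to 2.16 RPKM (median 1.43) in the pre-metastatic livers, where the liver of mouse M10 lay below every control liver and the other 8 above them all (log2 1.10 ± 0.24, edgeR adjusted p = 0.0028). Col6a1 (log2 0.70 ± 0.19) and Col6a3 (0.86 ± 0.27) rose with overlapping groups (edgeR adjusted p = 0.0126 and 0.0241). The call of Col6a3 was lost without the control liver of mouse C1 or C5 (edgeR adjusted p = 0.0666 and 0.0565). Without the livers of both C1 and M4, neither gene was called (edgeR adjusted p = 0.06 for Col6a1 and 0.101 for Col6a3).

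Col15a1 and Col27a1 are known for roles at basement membranes and in cartilage, respectively. Col15a1 (chromosome 4, 47207627 to 47313167) was uneven in the control livers, at 1.35, 0.643, 0.191, 0.187, and 0.897 RPKM, and was at 1.43 to 4.57 RPKM (median 3.75) in the pre-metastatic livers. The groups just failed to overlap, and the rise was 5.50-fold (log2 2.46 ± 0.45, edgeR adjusted p = 0.000971). Col27a1, a fibrillar chain, was at 0.587, 0.433, 0.660, 0.686, and 0.847 RPKM in the control livers and at 0.731 to 2.90 RPKM (median 1.88) in the pre-metastatic livers, a rise of 3-fold (log2 1.58 ± 0.25, edgeR adjusted p = 0.000353). Only the liver of mouse M6 lay within the control range. Col25a1, a transmembrane collagen best known from neurons, was near the limit of detection, at 0.0142, 0.00645, 0.0204, 0.0096, and 0.00892 RPKM in the control livers and 0.016 to 0.150 RPKM (median 0.0987) in the pre-metastatic livers. All but the liver of mouse M1 exceeded the control range (log2 2.997 ± 0.52, edgeR adjusted p = 0.000693).

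The basement membrane genes Col4a1 and Col4a2 rose by nearly the same amount. They lie head to head on chromosome 8, and their starts overlap by 22 bases (chr8:11312805-11312826, plus strand, RefSeq, GRCm38.p6), a stretch shown because it belongs to both genes.
Col4a1 and Col4a2 shared stretch: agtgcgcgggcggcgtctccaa
Col4a1 was at 2.48, 4.38, 3.08, 4.79, and 4.31 RPKM in the control livers and at 4.19 to 10.2 RPKM (median 6.43) in the pre-metastatic livers (log2 0.92 ± 0.22, 1.89-fold, edgeR adjusted p = 0.00546). Col4a2 was at 1.84, 3.12, 2.23, 3.31, and 3.77 RPKM and at 2.50 to 7.70 RPKM (median 4.92), respectively (log2 0.93 ± 0.21, 1.91-fold, edgeR adjusted p = 0.00345). Their groups overlapped, with 7 and 8 of the 9 pre-metastatic livers above all control livers. Of the other type IV chains, Col4a5 rose (log2 1.13 ± 0.30, edgeR adjusted p = 0.00932), whereas Col4a3 and Col4a4, at most 49 counts in any library, were not called. Col4a3 and Col4a4 also overlap by 7 bases on opposite strands, and Col4a3 lies over an antisense transcript of up to 388 counts; the library kit is not stated to mark strand.

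The remaining called genes were Col5a3 (log2 0.92 ± 0.23), Col12a1 (1.03 ± 0.35), and Col16a1 (1.15 ± 0.29), which rose, and Col11a2, a minor fibrillar chain, which fell (-0.97 ± 0.28, edgeR adjusted p = 0.0162). The fall of Col11a2 lost its call without the control liver of mouse C1 (edgeR adjusted p = 0.0559). Col12a1 lost its call without the control liver of mouse C1, C4, C5, or C6 (edgeR adjusted p = 0.0516 to 0.0914). The same held without the pre-metastatic liver of mouse M4, M5, or M7 (edgeR adjusted p = 0.0511 to 0.055). Col18a1 was at 117.8 to 186 RPKM (median 158) in the pre-metastatic livers, 6 of which exceeded every control liver, and its rise of 1.30-fold did not pass the test (log2 0.38 ± 0.15, edgeR adjusted p = 0.059). It passed without the control liver of mouse C1 (edgeR adjusted p = 0.0275) and under DESeq2 (DESeq2 adjusted p = 0.032). Col14a1 varied widely: the pre-metastatic livers of mice M7 and M12 were at 1.30 and 1.38 RPKM and that of mouse M2 at 10.7 RPKM (log2 0.48 ± 0.42, edgeR adjusted p = 0.419). Col8a1, Col8a2, Col13a1, Col17a1, Col20a1, Col23a1, and Col24a1 were not called by edgeR. DESeq2 called Col8a1 among them (log2 1.33 ± 0.56, DESeq2 adjusted p = 0.0483).

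Markers of other cell types moved with some of these values, and their part in the result was not tested. Of 8 hepatic stellate cell markers, 0 rose and 1 (Ecm1) fell in pre-metastatic liver by edgeR and by DESeq2, and at an unadjusted p under 0.05 0 rose and 2 fell. Their summed level was 62.9 to 98.6 RPKM in control livers and 13.6 to 80.1 RPKM in pre-metastatic livers, lowest in mice M7 and M12. In those livers Col3a1 was at 14.8 and 13.95 RPKM, Col5a1 at 0.484 and 0.523 RPKM (lowest of the 9 in mouse M7), and Col5a3 at 3.36 and 1.94 RPKM (lowest in mouse M12). Of 6 fibroblast markers tested, Pdpn rose by edgeR and Pdpn and Lum by DESeq2, and at an unadjusted p under 0.05 by edgeR 2 were higher. Further, of 6 contractile markers (Acta2 among them) 0 rose by edgeR, by DESeq2, or at an unadjusted p under 0.05. Of 4 mesothelial markers 3 rose, with summed levels of 1.83 to 5.597 RPKM in control and 4.34 to 14.3 RPKM in pre-metastatic livers, and of 4 macrophage markers 4 rose, from 34.7 to 70.3 RPKM to 63.8 to 176.6 RPKM. Of 6 colon epithelial markers tested, 3 rose in pre-metastatic liver: Krt20 (12.7-fold, edgeR adjusted p = 0.035, 5 livers above every control liver), Vil1 (7.94-fold, 0.0402), and Cdh1 (1.97-fold, 0.0319). The liver of mouse M6 held Krt20 at 1.31 RPKM, against a median of 0.0928 RPKM over the pre-metastatic livers. Without that liver 18 collagen genes were still called higher, without the livers of mice M7 and M12 19 were, and without the livers of mice C1 and M4, which held muscle genes, 16 were. Among all genes tested in these fits, 2957 of 16862, 2904 of 16627, and 2365 of 16762 were called higher, in the same order. The genes called also changed: without the livers of mice M7 and M12, Col5a1 was called and Col12a1 was not (edgeR adjusted p = 0.0335 and 0.0576).

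**Figure D3:**
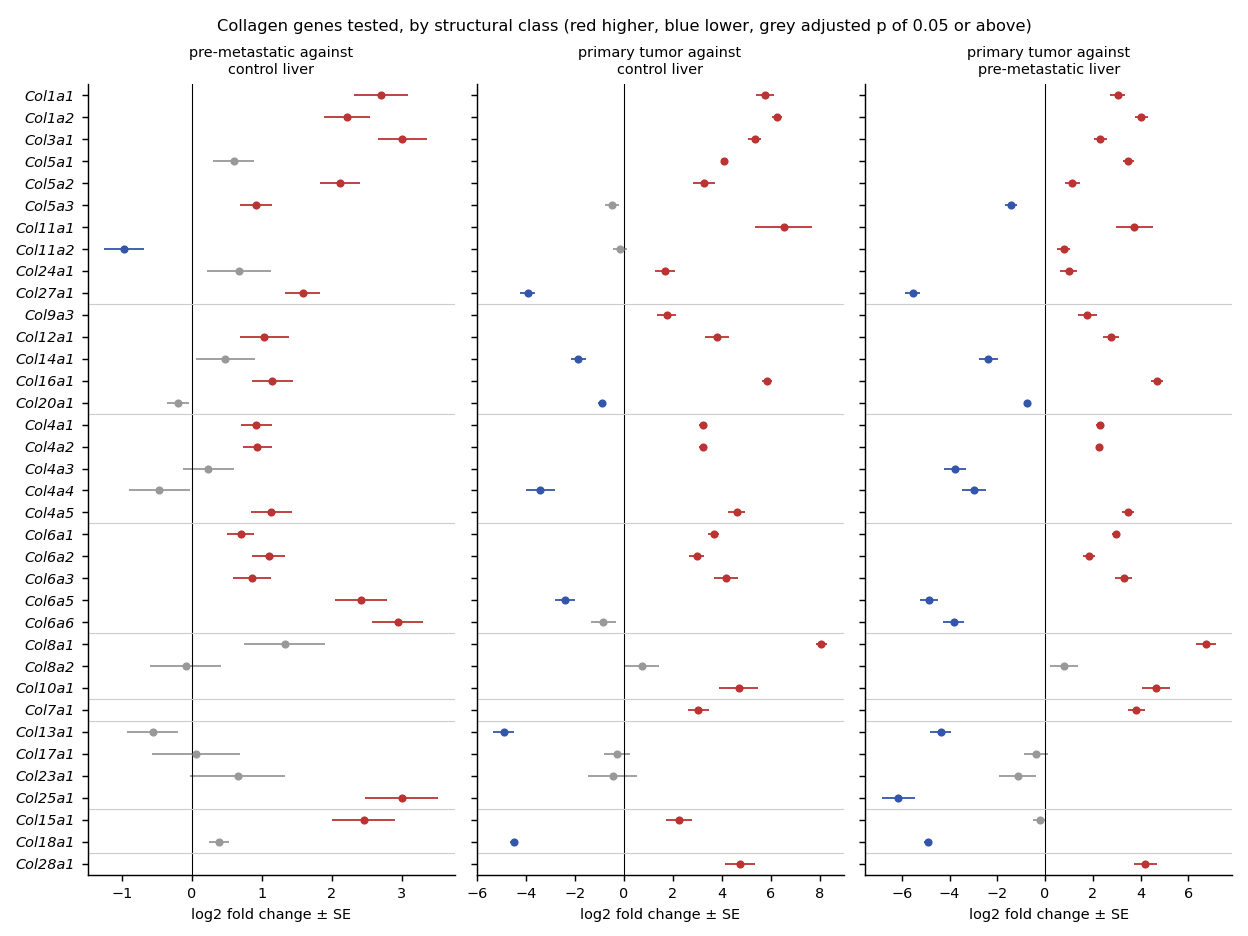
Log2 fold change with its standard error (edgeR) for every collagen gene tested in each of the 3 comparisons, grouped by structural class from top to bottom, with red for genes called higher, blue for genes called lower, and grey for the others. Between the livers 18 genes are red and 1 is blue; in the comparisons with the tumor large rises and large falls stand side by side, up to 8.07 for Col8a1 and down to -6.14 for Col25a1.

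Most collagen genes, like most of all genes tested, differed between the primary tumor and control liver, in both directions. Tissue and tumor bearing cannot be told apart in this comparison. Of 34 genes tested, 21 were higher and 7 lower in tumor, and among all 19322 genes tested 44.2% were higher and 38.1% lower. The median log2 fold change of the 34 was 3.004. Col1a2 was the most abundant collagen gene of the tumor, at 272 to 451.2 RPKM (median 339.2), and was 77.1-fold higher than in control liver (log2 6.27 ± 0.21, edgeR adjusted p = 1.98e-13). Col3a1, at 99.8 to 270 RPKM (median 193.5), was 40.5-fold higher (log2 5.34 ± 0.27, edgeR adjusted p = 2.47e-11). Col1a1 was at 50.9 to 132.6 RPKM (median 116.4) and 54.6-fold higher (log2 5.77 ± 0.38, edgeR adjusted p = 5.74e-10). The tumors of mice M1, M6, and M8 held Col1a1 at 50.9 to 57.7 RPKM, under the 103.9 to 132.6 RPKM of the other 6, and were also the 3 lowest tumors for Col1a2 and for Col3a1. For all of these genes every tumor was above every liver.

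Of the genes that were low in control liver, Col8a1 and Col16a1 were prominent in the tumor. Col8a1, a short-chain network collagen, was at 0.0259, 0.0824, 0.0489, 0.0843, and 0.0499 RPKM in the control livers and at 28.2 to 41.4 RPKM (median 31.4) in the tumors, a fold of 268 (log2 8.07 ± 0.23, edgeR adjusted p = 4.19e-14). Col16a1, a fibril-surface collagen, was at 0.302, 0.592, 0.418, 0.475, and 0.369 RPKM in the control livers and at 42.1 to 64.9 RPKM (median 52.6) in the tumors, 57.7-fold higher (log2 5.85 ± 0.19, edgeR adjusted p = 1.64e-13). Both were even across the 9 tumors, with SDs of 4.58 and 7.95 RPKM. Col4a1, Col4a2, and Col6a1 were at means of 75.8 ± 11.6, 55.9 ± 8.60, and 49.5 ± 12.2 RPKM (SD, n = 9) in the tumors and rose by 3.24 ± 0.17, 3.22 ± 0.17, and 3.67 ± 0.23 on the log2 scale (edgeR adjusted p = 3.32e-11, 4.51e-11, and 3.22e-10). Col5a1 (log2 4.10 ± 0.14), Col4a5 (4.62 ± 0.35), Col6a3 (4.17 ± 0.49), and Col12a1 (3.80 ± 0.48) rose as well. Col11a1, a fibrillar chain that liver nearly lacks, had 1 count over the 5 control livers and 496 over the 9 tumors, a ratio, scaled to library totals, of 271.2 (exact counting interval 48.4 to 10730). Col10a1, known from growth cartilage, had 4 and 443 counts, a ratio of 60.5 (23.5 to 223.2), but lies wholly within Nt5dc1 on the opposite strand, so its counts are uncertain. These intervals cover counting error only.

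The falls were led by Col13a1 and Col18a1. Col18a1 was at 8.51 to 17.1 RPKM (median 11.1) in the tumors, 22.8-fold lower than in control liver (log2 -4.51 ± 0.17, edgeR adjusted p = 9.17e-13). Col13a1, a transmembrane collagen, was at 0.541, 1.14, 0.404, 1.23, and 0.902 RPKM in the control livers and at 0.0154 to 0.170 RPKM (median 0.0552) in the tumors, 30.3-fold lower (log2 -4.92 ± 0.43, edgeR adjusted p = 2.31e-08). Col27a1 was at 0.0376 to 0.197 RPKM in the tumors and 15.3-fold lower (log2 -3.93 ± 0.31, edgeR adjusted p = 5.22e-09). None of these groups overlapped. Col4a4 (log2 -3.42 ± 0.61) and Col6a5 (-2.43 ± 0.42) fell with overlapping groups (edgeR adjusted p = 7.5e-05 and 5.3e-05), and Col4a4 rests on at most 14 counts in a tumor. Col14a1 fell by 1.87 ± 0.31 on the log2 scale (edgeR adjusted p = 3.7e-05), although the tumor of mouse M4 was at 5.72 RPKM, above every control liver. Col20a1 was called lower (-0.92 ± 0.17) under TMM and not under library totals, where its log2 fold change was 0.15. Col2a1, the main cartilage collagen, had 1 count over the control livers and at most 20 in a tumor, and Col19a1 was at 0 in all control livers and had a tumor mean at least 2.05-fold above the floor of 3 counts per library.

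Against the pre-metastatic liver of the same mice, the tumor was higher in 21 and lower in 11 of 36 collagen genes tested, and among all 19751 genes tested 43.8% were higher and 39.5% lower. The median log2 fold change of the 36 was 1.46. The rises were led by Col8a1, which was at 0.0343 to 0.462 RPKM in the pre-metastatic livers (log2 6.74 ± 0.41, 107-fold, edgeR adjusted p = 5.68e-12). Col16a1, at 0.533 to 1.71 RPKM in those livers, was 25.8-fold higher in tumor (log2 4.69 ± 0.23, edgeR adjusted p = 3.08e-13). Col10a1 (ratio of counts scaled to library totals 62.6, exact counting interval 30.1 to 156.6) and Col28a1 (log2 4.19 ± 0.48) were near 0 in both kinds of liver. Col10a1, Col11a1, Col28a1, Col7a1, and Col9a3 passed the filter here through the tumors, with at most 1 pre-metastatic liver at 10 counts, and all but Col7a1 did so against control liver with none, so their place among the rises follows from the filter. Among the fibrillar genes, Col1a2 rose 16.4-fold (log2 4.04 ± 0.26, edgeR adjusted p = 1.26e-11), Col1a1 8.29-fold (3.05 ± 0.31, 1.99e-08), and Col3a1 4.99-fold (2.32 ± 0.27, 1.15e-07). Col4a1 and Col4a2 rose 4.93-fold and 4.82-fold, and Col6a1 7.76-fold.

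Among the falls against pre-metastatic liver, Col25a1 and Col4a3 passed the filter through the livers alone, since no tumor held 10 counts, so that they had to be lower to be tested. Col25a1 was at 0 in 5 tumors and at most 0.0175 RPKM, with a log2 fold change of -6.14 ± 0.68. Col27a1 was 46.3-fold lower (log2 -5.53 ± 0.31, edgeR adjusted p = 1.99e-12), Col18a1 30.1-fold lower (-4.91 ± 0.18, 2.42e-15), Col6a5 29-fold lower (-4.86 ± 0.36, 1.43e-10), and Col13a1 20.8-fold lower (-4.38 ± 0.43, 1.04e-08). In each of these 4 genes every tumor was below every pre-metastatic liver. Col6a6 fell as well (log2 -3.82 ± 0.44), as did Col4a4 and Col14a1. Col5a3 was not called under library totals (log2 -0.29), and Col20a1, called lower under TMM (-0.74), was called higher there (0.44). The comparisons share libraries, so the values of one are not independent of another: for Col6a6 they were 2.94 for pre-metastatic against control liver, -0.86 for tumor against control liver (edgeR adjusted p = 0.133, and 0.24 under library totals), and -3.82 for tumor against pre-metastatic liver. Col15a1, which had risen in the liver, depended on the scaling between tumor and pre-metastatic liver: it was not called under TMM (log2 -0.22, 95% interval of -0.76 to 0.32) and was higher in tumor under library totals (log2 0.95, edgeR adjusted p = 0.00354), with 6 of 9 tumors above every pre-metastatic liver in RPKM. Of the markers for stromal cells, 7 of 8 fibroblast genes were higher in tumor than in pre-metastatic liver and 7 of 8 stellate genes were lower, with Lrat and Reln at medians of 0 and 0.00313 RPKM in tumors; their part in the collagen values was not tested. The tumors of mice M4 and M7, which held muscle genes, did not decide the counts, which were 21 and 11 without these mice. Of all 19154 genes tested without them, 8138 were higher and 7382 lower.

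Pairs of collagen genes were next compared within each library, as a ratio of RPKM that does not depend on scaling between libraries. Most pairs join chains of the same collagen type, whereas Col3a1, Col4a1, and Col18a1 were each set against Col1a1, a chain of another type. In 8 pairs and 3 comparisons, 24 differences were tested (exact permutation test, two-sided, Benjamini-Hochberg adjusted over the 24), and 15 had an adjusted p under 0.05. The smallest p that 9 against 5 libraries allow is 0.000999. Col4a2 to Col4a1 held steadiest, at a median of 0.722 in control livers (0.692 to 0.876), 0.765 in pre-metastatic livers (0.555 to 1.05), and 0.759 in tumors (0.650 to 0.805), while the level of both genes moved by up to 19.9 times between group means. The 3 differences were 0.03, -0.015, and -0.045 on the log2 scale (exact permutation test, adjusted p = 0.836, 0.836, and 0.729).

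Col5a2 to Col5a1 moved most among chains of the same collagen type. The ratio was 0.377 to 0.649 in control livers, 0.975 to 2.43 in pre-metastatic livers, and 0.0963 to 0.550 in tumors. It differed by 1.56 on the log2 scale between the livers, without overlap (exact permutation test, adjusted p = 0.0024), and by -2.62 between tumor and pre-metastatic liver (adjusted p = 0.000247 by the same exact test). Within the tumors it spread widely, since Col5a1 varied little (SD of log2 0.15) and Col5a2 a great deal (SD of log2 0.94), from 2.66 RPKM in mouse M1 to 14.4 RPKM in mouse M4. The type I ratio of Col1a2 to Col1a1 had a median of 2.32 in control livers, 1.77 in pre-metastatic livers, and 3.40 in tumors. The tumor ratios (2.66 to 5.57) did not overlap with those of pre-metastatic livers (1.44 to 2.54), a difference of 1.05 on the log2 scale (exact permutation test, adjusted p = 0.000247), and the ratio was lower in pre-metastatic than in control liver by 0.52 (adjusted p = 0.014, exact test). Within the pre-metastatic livers the single genes spread with SDs of 0.77 (Col1a1) and 0.69 (Col1a2) on the log2 scale and their ratio with an SD of 0.26. Col6a2 to Col6a1 was lower in tumor (0.114 to 0.291) than in either liver (0.322 to 0.476 and 0.346 to 0.606), whereas Col6a3 to Col6a1 did not differ beyond its spread in any comparison (exact permutation test, adjusted p = 0.587, 0.552, and 0.637).

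Across types, the basement membrane genes were lower relative to Col1a1 in pre-metastatic than in control liver. Col4a1 to Col1a1 was at 3.31 to 9.75 in control livers, 0.832 to 2.77 in pre-metastatic livers, and 0.491 to 1.91 in tumors, a difference of -1.72 on the log2 scale between the livers (exact permutation test, adjusted p = 0.0024). Col18a1 to Col1a1 fell from 107.4 to 254.6 in control livers to 18.1 to 77.4 in pre-metastatic livers, a difference of -2.23 (adjusted p = 0.0024, exact permutation test), and was 0.0722 to 0.302 in tumors. Between tumor and pre-metastatic liver the ratio of Col4a1 to Col1a1 differed by -0.77 (exact permutation test, adjusted p = 0.0377), and with the replicate block, an exact sign-flip test within mice, the adjusted p was 0.0762. Col3a1 to Col1a1 differed by -0.70 between tumor and pre-metastatic liver (exact permutation test, adjusted p = 0.00565). Its differences between the livers (0.28) and between tumor and control liver (-0.42) did not pass (exact permutation test, adjusted p = 0.279 and 0.109).

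**Figure D4:**
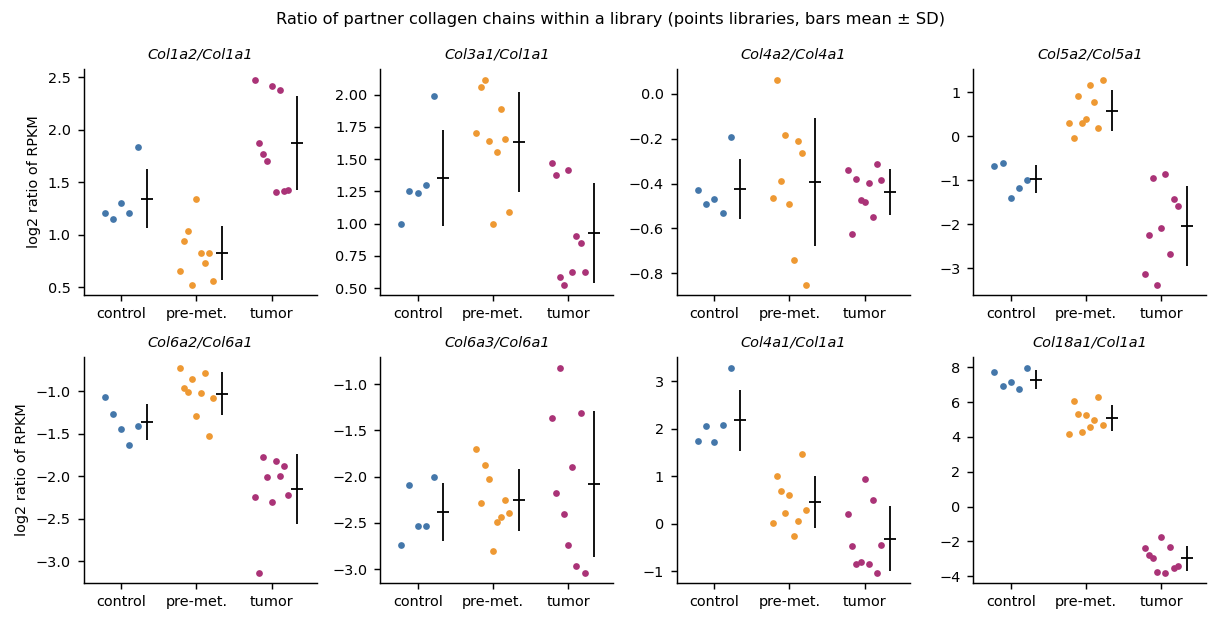
Log2 ratio of RPKM of 8 pairs of collagen genes within each library, with points for libraries, colors and positions for control liver, pre-metastatic liver (pre-met.), and tumor, and bars for the mean ± SD beside them. Col4a2/Col4a1 has means of -0.42, -0.39, and -0.44 in the 3 tissues, while Col5a2/Col5a1 is highest in pre-metastatic liver and Col18a1/Col1a1 differs by -2.23 between the livers and by -8.05 between tumor and pre-metastatic liver.

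A collagen chain is hydroxylated, folded, trimmed, and cross-linked by other proteins before it holds in a fibril, and 52 such genes and collagen receptors were read from the same fits. Between the livers 44 were tested, 17 rose, and 3 fell, where 17.7% and 13.3% of all genes tested did. Under library totals 13 rose and 5 fell, compared with 14% and 16.5% of all genes. Of 6 cross-linking genes 4 rose. Loxl4, a lysyl oxidase, went from a median of 0.0770 to 0.203 RPKM with the liver of mouse M4 at 1.63 (log2 2.56 ± 0.74, edgeR adjusted p = 0.0167), and without that liver its log2 fold change was 1.90 ± 0.56 (edgeR adjusted p = 0.0204). Its call was lost without the livers of both C1 and M4 (log2 1.80, edgeR adjusted p = 0.0512) and under limma (limma adjusted p = 0.152). Loxl1, a related oxidase named here after its values were seen, rose in every pre-metastatic liver over every control liver (log2 1.97 ± 0.26, edgeR adjusted p = 0.000116). Of 6 propeptide cleavage genes tested 3 rose, led by Pcolce, which speeds removal of the C-terminal propeptide of fibrillar collagens, with 1.75 to 3.23 RPKM in control livers and 3.82 to 12 RPKM in pre-metastatic livers (log2 1.64 ± 0.27, edgeR adjusted p = 0.000513). Of 7 folding and export genes 2 rose, Serpinh1, the collagen chaperone, and Fkbp10, a prolyl isomerase for collagen (log2 1.18 ± 0.30, edgeR adjusted p = 0.00785), and Sec23a, a coat protein of transport vesicles, fell (-0.56 ± 0.13). Of 13 hydroxylation and glycosylation genes tested 4 rose, P3h4 the most (0.80 ± 0.26), and 2 fell, P4ha1, a prolyl hydroxylase subunit, the most (-0.75 ± 0.21). The call of P3h4 was lost without the control liver of C1, C5, or C6. That of P4ha1 was lost among the early-phase mice (edgeR adjusted p = 0.095) and without the livers of both C1 and M4 (edgeR adjusted p = 0.056). Of 5 proteoglycan genes tested, 0 were called by edgeR and 1 by DESeq2, and 1 had an unadjusted p under 0.05. Of 7 receptor genes tested 4 rose, led by Lair1, an inhibitory collagen receptor of leukocytes (1.18 ± 0.29).

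In tumor, 29 of 50 such genes tested were higher and 13 lower than in control liver (44.2% and 38.1% of all genes tested), and 29 and 16 of 50 than in pre-metastatic liver (43.8% and 39.5%). Pcolce was at 179.6 to 330.9 RPKM and Fkbp10 at 32.7 to 45.5 RPKM in the tumors, and their log2 fold changes against pre-metastatic liver were 4.24 ± 0.21 and 4.59 ± 0.20. Plod2, which hydroxylates lysines of collagen ends, rose by 4.51 ± 0.26, Loxl4 by 3.81 ± 0.52, and Aspn, a small fibril-binding proteoglycan, by 6.05 ± 0.58, all on the log2 scale with an edgeR adjusted p of at most 1.01e-06. Pcolce2, the related enhancer, moved the other way: it rose in pre-metastatic liver (1.31 ± 0.30) and was lower in tumor than in that liver (-5.09 ± 0.45). Sec23a (-1.65 ± 0.10) and P3h2 (-1.82 ± 0.45) were also lower in tumor, although P3h2 was not called under library totals (-0.69), while P4ha1 rose (2.92 ± 0.20). Bgn was called lower under TMM (-0.89 ± 0.29), but its log2 fold change turned to 0.27 under library totals, where it was not called. Under library totals 37 were higher and 6 lower against control liver, and 34 and 7 against pre-metastatic liver, where 66.6% and 21.4%, and 67.6% and 21.3%, of all genes were.

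**Figure D5:**
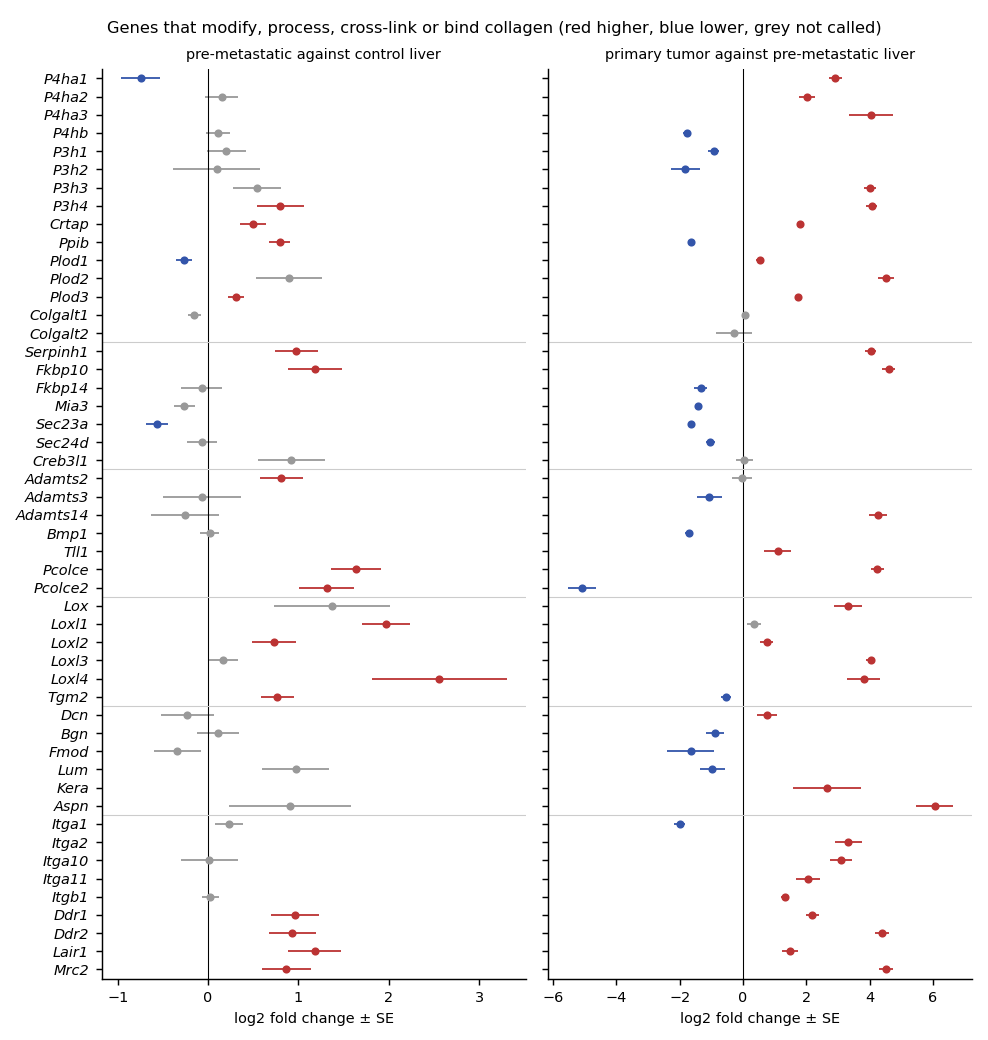
Log2 fold change with its standard error (edgeR) of genes that modify, process, cross-link, or bind collagen, for pre-metastatic against control liver (left) and tumor against pre-metastatic liver (right), with red for higher, blue for lower, and grey for not called. Lines separate the classes, and 17 genes are red on the left, with Loxl4 farthest right at 2.56.

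Of the tested genes not yet given for the tumor, Col6a2 was at 4.86 to 18.5 RPKM there (median 11.2) and rose by 2.97 ± 0.29 and 1.85 ± 0.24 on the log2 scale against control and pre-metastatic liver. Col5a2, at 2.66 to 14.4 RPKM (median 5.86), rose by 3.28 ± 0.46 and 1.15 ± 0.33 (edgeR adjusted p = 5.7e-06 and 0.00359). Others were at low levels. Col7a1, the anchoring fibril gene, rose from at most 20 counts in a liver to at most 538 in a tumor (log2 3.04 ± 0.42 and 3.82 ± 0.36 against control and pre-metastatic liver), and Col9a3 (1.74 ± 0.39 and 1.77 ± 0.41) and Col24a1 (1.69 ± 0.40 and 0.997 ± 0.35) were higher as well. The call of Col24a1 against pre-metastatic liver was lost with the replicate block of mouse (edgeR adjusted p = 0.0555). Col8a2 and Col17a1 were not called in any comparison, with standard errors of 0.51 to 0.69 on the log2 scale. Col23a1 was not called either, but with the replicate block it was lower in tumor than in pre-metastatic liver (log2 -2.20, edgeR adjusted p = 0.0192). Col2a1, Col4a6, Col6a4, Col9a1, Col9a2, Col19a1, Col22a1, and Col26a1 were not tested in any comparison, with at most 20 counts in a library, and Col9a1 had 0 counts in all 23.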

How the data were processed

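Poly(A) RNA of 23 samples was sequenced. The authors deposited raw counts per gene and RPKM for each library. The submitters' processing notes name HISAT2, HTSeq 0.6.0, and mm10, with no role or order, and the annotation is not given in the sources used here. All 46 columns were matched to samples by mouse number and tissue. RPKM recomputed from the deposited counts differed by at most 1.75e-06 of a value. A gene entered a comparison if 5 or more of its libraries held 10 or more counts, and was tested with edgeR 4.0.16 (R 4.3.3; TMM, quasi-likelihood test, Benjamini-Hochberg, threshold 0.05). SEs are the log2 fold change over the square root of F. DESeq2 1.42.0 and limma 3.58.1 gave alternatives, the latter on log2(RPKM + 1). Pair ratios used scipy 1.17.1. The groups are those of the labels, and p-values cover the spread between mice within 1 experiment. Tumor and liver were paired by the mouse number of the labels. The mean correlation of their deviations over 19751 genes was 0.07 within a mouse, against -0.009 between different mice. It was highest with the own partner in only 4 of the 9 mice. No pair of libraries agreed within sampling noise. The collagen genes and the lists of classes, pathway genes, and markers were chosen with earlier results of these data known. Named in full are the 12 called genes with the smallest adjusted p between the livers, the 8 most abundant in tumor, the 5 largest rises and 5 largest falls, the 5 most abundant in control liver, and 12 pathway genes (largest rise and fall per class, taken in order of comparison). In 28 collagen genes another gene overlaps. The fits without livers holding muscle genes, without livers low in stellate cell genes, and without the liver with tumor genes were chosen after seeing the data.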

Additional observations from a re-analysis of the deposited data

Results flagged for a closer look

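Among 22 collagen genes with values given by sample, 8 values lay far from the rest of their group by Dixon's test, out of 66 gene and group combinations examined. Its cutoffs flag 1 in 20 where values spread normally, which RPKM near 0 need not do. The number expected by chance is therefore not known. In the pre-metastatic livers, Col8a1 was at 0.462 RPKM in mouse M6 against 0.0343 to 0.174 in the others, and that liver also held Krt20 at 1.31 RPKM, whose part was not tested. Col4a4 was at 0.0755 RPKM in the liver of mouse M2 against 0.0146 to 0.0438. In the tumors, mouse M4 stood apart for Col10a1 (0.760 against 0.0612 to 0.374 RPKM), Col14a1 (5.72 against 1.06 to 3.28 RPKM), and Col25a1 (0.0175 against 0 to 0.00234 RPKM), and this tumor held skeletal muscle genes at 343.6 RPKM, whose part was not tested. Col27a1 was at 0.197 RPKM in the tumor of mouse M7 against 0.0376 to 0.110 in the others, and Col13a1 at 0.170 RPKM in the tumor of mouse M5 against 0.0154 to 0.0611. Col11a1 was at 0.00229 RPKM, a single count, in the control liver of mouse C7 and at 0 in the others, so any count at all would have been flagged there.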

How the results depend on the processing

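Under the alternatives the number of collagen genes called stayed within 1.5 times of the reported one, except that the single gene lower in pre-metastatic liver, Col11a2, was lost (0 called) among the early-phase mice and without the livers holding muscle genes. The share of all genes did not stay alike. Under library totals 66.6% were higher in tumor than in control liver and 67.6% than in pre-metastatic liver, compared with 44.2% and 43.8% under TMM. The tumor counts of collagen genes thus stand against a larger share there. Leaving out 1 library at a time gave 16 to 18 higher and 0 to 1 lower between the livers, 21 higher and 7 to 8 lower for tumor against control liver, and 20 to 21 higher and 11 to 12 lower for tumor against pre-metastatic liver. The 0 came without the control liver of mouse C1. Among all genes in those fits, 2502 to 2964 were higher and 1757 to 2317 lower between the livers (16765 to 16899 tested). For tumor against control liver these were 8257 to 8480 and 6584 to 7331 (18601 to 19154 tested). Against pre-metastatic liver they were 8344 to 8470 and 7539 to 7660 (19434 to 19559 tested). Between the livers, Col12a1 and Col6a3 also lost their calls under library totals (edgeR adjusted p = 0.0614 and 0.054). Both lost them under limma as well (limma adjusted p = 0.145 and 0.0878). With the replicate block of mouse, 20 collagen genes were higher and 12 lower in tumor than in pre-metastatic liver. Of all 19751 genes tested with that block, 8672 were higher and 7659 lower. The ratio of Col4a1 to Col1a1 kept its difference of -0.77 with an adjusted p of 0.0762 by the exact sign-flip test. Of the single genes, Col24a1 and Adamts3 lost their calls (edgeR adjusted p = 0.0555 and 0.0542) and Col23a1 gained one. Col20a1 turned to 0.15 and 0.44 under library totals and to 0.0752 and 0.21 under limma (tumor against control and pre-metastatic liver). Against pre-metastatic liver, under library totals and limma, Bgn turned to 0.27 and 0.20 and Col15a1 to 0.95 and 0.71 (0.0674 in late-phase mice), and Col23a1 turned to 0.0365 under library totals. Col6a6 in tumor against control liver turned to 0.24 and 0.0167. Under library totals the pathway genes called lower were 5, 6, and 7 in the 3 comparisons. Leaving out 1 control liver at a time, the ratio for tumor against control liver ran from 0.48 to 0.66 for Col1a2 to Col1a1 (call lost in 4 of 5 cases, kept without mouse C7), from -1.17 to -0.98 for Col5a2 to Col5a1 (lost without C1, C4, or C7), and from -0.0424 to 0.0426 for Col4a2 to Col4a1 (never called), and Col6a2 to Col6a1 between the livers ran from 0.27 to 0.41, with a call gained without mouse C1. The ratio of the summed level, 1.47, 6.38, and 4.36 in the order of the comparisons, became 5.18 and 3.63 for the tumor with the sum of library-scaled counts, 4.24 and 2.97 without Col1a2, and 2.61, 36.9, and 14.2 without Col18a1. The causes were not tested. At most 20 counts in a library did not allow a test of 8 collagen genes.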
